A study of Drosophila melanogaster with 10 samples.

Results

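The muscle that surrounds the fly gut was described through 10 genes that encode parts of its sarcomere. They were Mhc, Mlc2 and Prm of the thick filament, Tm2, wupA and up of the thin filament, the giant proteins bt and sls, and Zasp52 and Mlp84B of the Z-disc. They were taken by symbol from 14292 genes, and all 10 were found, with 107 of the 31089 transcript rows of the table. Midguts of adult male Drosophila melanogaster were compared between genotypes, with 5 libraries each, from flies kept on yeast alone at 25 °C and dissected 7 days after eclosion. The first genotype was Dredd D44; mex-GAL4/UAS-PGRP-LE (written mex>PGRP-LE), in which the mex driver switches on PGRP-LE, a receptor for bacterial peptidoglycan, in enterocytes. The other was Dredd D44; mex-GAL4/+ (written mex>+), with the driver and no transgene. Both therefore carried the same mutation of Dredd, the caspase that activates Relish in the IMD immune pathway, and there was no group with intact Dredd. The series describes the libraries as biological replicates and names 20 midguts as the source of RNA. The driver is described as acting in enterocytes, which are not muscle cells.

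The fly midgut is wrapped by circular and longitudinal muscle fibres that, unlike the smooth muscle of the vertebrate gut, have striated sarcomeres. In a sarcomere, myosin thick filaments slide along actin thin filaments that are anchored at Z-discs, with tropomyosin and troponin setting when myosin can bind and elastic titin-like proteins linking thick filaments to the Z-disc. Visceral muscle moves food along the gut and also supplies signals to the stem cells of the epithelium beneath it.

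Levels are given in TPM, a transcript abundance that is scaled for transcript length and sums to the same total in every library. It keeps no record of sequencing depth, so no counting error can be given, and a gene's TPM falls when other RNAs take a larger share. The 8722 genes that reached 1 TPM in 5 or more libraries were tested by limma on log2(TPM + 1) with Benjamini-Hochberg adjustment over those genes and a threshold of 0.05. Log2 changes are mex>PGRP-LE minus mex>+, with limma's standard error (SE). "Rose" and "fell" are used for what passed that threshold. PGRP-LE itself averaged 4533.6 ± 295.1 TPM in mex>PGRP-LE and 38.2 ± 2.33 TPM in mex>+ libraries (SD, n = 5 each), which follows the labels. Dredd RNA, whose gene carries the D44 mutation in both groups, averaged 33.0 ± 2.15 and 23.2 ± 2.01 TPM, without overlap (log2 change 0.49, adjusted p = 3.43e-05). The libraries held 8673 to 8767 genes at 1 TPM or more in mex>PGRP-LE and 8565 to 8618 in mex>+.

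The 10 genes did not change together. Mhc, Prm, bt, sls and Mlp84B fell, to between 75.7% and 80.9% of their mex>+ means, Zasp52 rose to 124.1%, and Mlc2, Tm2, wupA and up did not pass the test. All 10 passed the filter on low values. The 6 of 10 that changed stand beside 62.9% of all tested genes that changed in either direction, the 5 that fell beside 22.8% that fell and the 1 that rose beside 40.1% that rose. Between the groups, 3 of the 10 genes did not overlap, beside 48.3% of all tested genes. The median log2 change was -0.16 over the 10 genes and 0.09 over all tested genes. Summed over the 10 genes, the level was 1581.8, 1844.3, 1685.8, 1554.4 and 1966.9 TPM in mex>PGRP-LE libraries 1 to 5, against 1909.9, 1979.9, 1777.8, 1657.3 and 1592.5 TPM in mex>+ libraries 1 to 5. The groups overlapped widely, with means of 1726.6 ± 176 and 1783.5 ± 163.5 TPM (SD, n = 5 each). In whole midguts, changes in the number of muscle cells, in RNA per muscle cell and in RNA from other cells cannot be told apart.

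**Figure D1:**
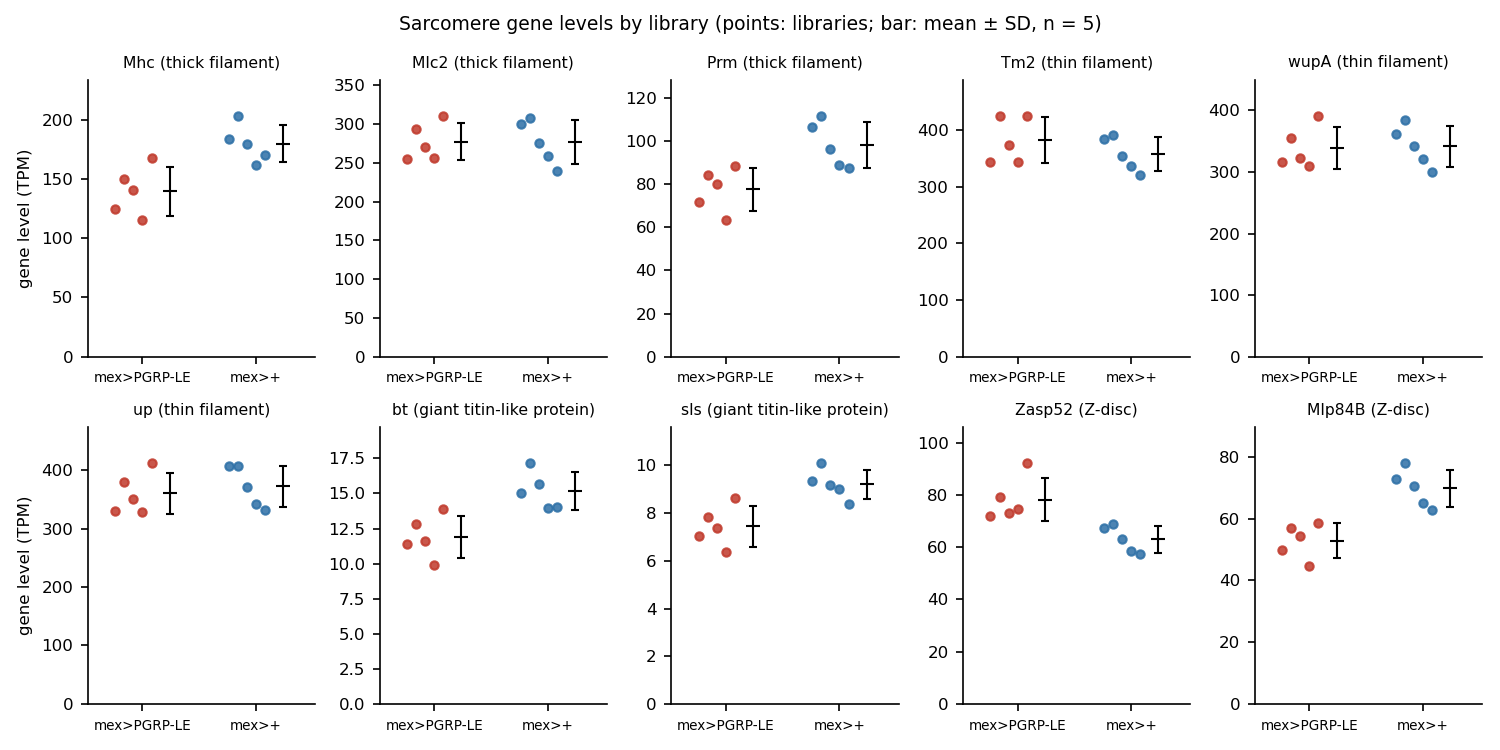
Level of each of the 10 sarcomere genes in TPM (vertical axes, from 0) in the 5 mex>PGRP-LE (red) and 5 mex>+ (blue) libraries, with 1 point per library in the order 1 to 5 and a bar for the mean ± SD. The groups are apart for bt, Mlp84B and Zasp52, which is the gene that is higher in mex>PGRP-LE, and they overlap for the other 7.

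Mhc encodes the myosin heavy chain, the motor of the thick filament, for all fly muscles (chromosome arm 2L, 16766566 to 16788766, plus strand). Its level was 124.6, 149.7, 140.6, 115.3 and 167.8 TPM in mex>PGRP-LE libraries 1 to 5, against 183.9, 203, 179.3, 161.8 and 169.8 TPM in mex>+ libraries 1 to 5. The groups touched at mex>PGRP-LE library 5, which lay above mex>+ library 4, and the other 4 mex>PGRP-LE libraries lay below every mex>+ library. The means were 139.6 ± 20.7 and 179.6 ± 15.6 TPM (SD, n = 5 each), and the difference on the log2 scale was -0.37 (SE 0.10, limma adjusted p = 0.00557).

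Prm encodes paramyosin, a rod protein in the core of invertebrate thick filaments (3L, 8732858 to 8745310, minus strand). It had 71.5, 84.4, 80.03, 63.6 and 88.3 TPM in mex>PGRP-LE libraries 1 to 5, against 106.4, 111.6, 96.1, 88.9 and 87.5 TPM in mex>+ libraries 1 to 5. Only mex>PGRP-LE library 5 reached into the mex>+ range, above mex>+ library 5. The log2 change was -0.34 (SE 0.10, limma adjusted p = 0.00869). Per library, Prm stood at 0.557 ± 0.0192 of Mhc in mex>PGRP-LE and 0.546 ± 0.0231 in mex>+ (SD, n = 5 each), with overlapping groups, so the ratio between these thick filament genes differed by less than its spread.

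Mlc2 encodes the regulatory light chain that sits on the neck of the myosin heavy chain (3R, 30171438 to 30174551, minus strand), and it did not change with Mhc. It had 255.7, 293.7, 271.1, 256.9 and 310.5 TPM in mex>PGRP-LE libraries 1 to 5, against 300.9, 308.5, 276.3, 259.6 and 240.1 TPM in mex>+ libraries 1 to 5. The ranges lay over each other and the means were 277.6 ± 23.9 and 277.1 ± 28.4 TPM (SD, n = 5 each), which is 0.00 on the log2 scale (SE 0.08, limma adjusted p = 0.963). The level of Mhc per Mlc2 was 0.487, 0.510, 0.519, 0.449 and 0.540 in mex>PGRP-LE libraries 1 to 5, against 0.611, 0.658, 0.649, 0.623 and 0.707 in mex>+ libraries 1 to 5. Every mex>PGRP-LE library was below every mex>+ library. These ratios, like all ratios between genes given here, were chosen after the values were seen and carry no test.

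None of the 3 thin filament genes passed the test. Tm2, a tropomyosin that lies along the actin filament (3R, 15310193 to 15315197, plus strand), had 343.9, 424.9, 374.7, 343.9 and 424.8 TPM in mex>PGRP-LE libraries 1 to 5, against 384.7, 390.7, 354, 336.7 and 320.4 TPM in mex>+ libraries 1 to 5. Its log2 change was 0.10 (SE 0.08, limma adjusted p = 0.314), with 2 mex>PGRP-LE libraries above the mex>+ range and the other 3 inside it. The gene wupA encodes troponin I, the subunit that holds myosin off actin at rest (X, 18105568 to 18116922, minus strand). Its levels were 316.5, 354.4, 322.3, 310.3 and 390.8 TPM in mex>PGRP-LE libraries 1 to 5, against 362.3, 384.7, 341.6, 321.1 and 300.4 TPM in mex>+ libraries 1 to 5 (log2 change -0.01, SE 0.08, limma adjusted p = 0.895). Both ranges covered nearly the same span. The gene up encodes troponin T, which ties the troponin complex to tropomyosin (X, 13593474 to 13602578, minus strand). It had 329.5, 380.3, 350.6, 329 and 411.7 TPM in mex>PGRP-LE libraries 1 to 5, against 407.2, 407.4, 371.9, 342.7 and 331.7 TPM in mex>+ libraries 1 to 5 (log2 change -0.05, SE 0.08, limma adjusted p = 0.624).

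Within libraries the thin filament genes and Mlc2 kept close proportions. The ratio of up to wupA was 1.06 ± 0.0181 in mex>PGRP-LE and 1.09 ± 0.0265 in mex>+, and that of Mlc2 to wupA was 0.820 ± 0.0187 and 0.810 ± 0.0123 (SD, n = 5 each), both with overlapping groups. Tm2 stood slightly apart. Its ratio to wupA was 1.09 to 1.20 in mex>PGRP-LE libraries and 1.02 to 1.07 in mex>+ libraries, without overlap, although Tm2 by itself did not pass the test.

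The genes bt and sls encode projectin and Sallimus, the titin-like proteins of fly muscle, and both fell. The gene bt (chromosome 4, 724400 to 776474, plus strand) had 11.4, 12.8, 11.6, 9.88 and 13.86 TPM in mex>PGRP-LE libraries 1 to 5, against 15.03, 17.2, 15.7, 13.95 and 14.04 TPM in mex>+ libraries 1 to 5. The groups did not overlap, with means of 11.9 ± 1.51 and 15.2 ± 1.32 TPM (SD, n = 5 each) and a difference of -0.33 on the log2 scale (SE 0.08, limma adjusted p = 0.00482). The gap between the highest mex>PGRP-LE and the lowest mex>+ library was small beside the spread within each group. The gene sls (3L, 2039681 to 2115611, minus strand) had 7.03, 7.84, 7.37, 6.37 and 8.63 TPM in mex>PGRP-LE libraries 1 to 5, against 9.35, 10.1, 9.18, 9.01 and 8.41 TPM in mex>+ libraries 1 to 5. Library 5 of mex>PGRP-LE lay above library 5 of mex>+ and the other 4 lay below all of mex>+, and the log2 change was -0.28 (SE 0.07, limma adjusted p = 0.00617). The level of bt per sls was 1.598 ± 0.0335 in mex>PGRP-LE and 1.65 ± 0.0681 in mex>+ libraries (SD, n = 5 each), and the groups overlapped.

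The Z-disc genes moved in opposite directions. Mlp84B encodes a muscle LIM protein of the Z-disc (3R, 7112850 to 7117732, minus strand) and had the largest fall of the 10 genes. It had 49.97, 56.9, 54.4, 44.6 and 58.6 TPM in mex>PGRP-LE libraries 1 to 5, against 72.8, 78.0, 70.7, 65.1 and 63.0 TPM in mex>+ libraries 1 to 5. The groups did not overlap, and the log2 change was -0.40 (SE 0.08, limma adjusted p = 0.00101). Zasp52 encodes a PDZ and LIM domain protein that binds alpha-actinin and is needed to assemble Z-discs (2R, 15762565 to 15817004, minus strand). It was the member that rose, with 71.8, 79.3, 73.2, 74.6 and 92.1 TPM in mex>PGRP-LE libraries 1 to 5, against 67.4, 68.8, 63.1, 58.6 and 57.2 TPM in mex>+ libraries 1 to 5. Every mex>PGRP-LE library was above every mex>+ library, with means of 78.2 ± 8.27 and 63.0 ± 5.16 TPM (SD, n = 5 each) and a rise of 0.30 on the log2 scale (SE 0.08, limma adjusted p = 0.00405). The level of Zasp52 per Mlp84B was 1.35 to 1.67 in mex>PGRP-LE libraries and 0.883 to 0.926 in mex>+ libraries.

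The order of levels was nearly the same in both groups. In mex>PGRP-LE it ran Tm2, up, wupA, Mlc2, Mhc, Zasp52, Prm, Mlp84B, bt and sls, and in mex>+ it ran up, Tm2, wupA, Mlc2, Mhc, Prm, Mlp84B, Zasp52, bt and sls. In both groups the ranges of the first 4 genes overlapped from neighbour to neighbour, and Mlc2 lay apart from Mhc. Within libraries, each of these genes stood above the next in all 5 libraries of its group. Tm2 per up was 1.03 to 1.12 in mex>PGRP-LE libraries and 0.945 to 0.983 in mex>+ libraries, without overlap. Zasp52 stood sixth in mex>PGRP-LE, with a range that overlapped that of Prm, and eighth in mex>+, with a range that overlapped that of Mlp84B. The lowest genes, bt at 11.9 and 15.2 TPM and sls at 7.45 and 9.21 TPM in mex>PGRP-LE and mex>+, are also those with the longest transcripts.

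Transcript length moved with the changes. Over all tested genes, the median log2 change was 0.13 for 3126 genes with a mean annotated transcript length over 1 kb and up to 2 kb, the class that holds Tm2, wupA and up. It was 0.06 for 1741 genes over 2 kb and up to 3 kb, 0.02 for 1449 genes over 3 kb and up to 5 kb, -0.03 for 591 genes over 5 kb and up to 10 kb, and -0.10 for 74 genes over 10 kb. The 3 shortest members, at 1.16 to 1.58 kb, were among those that did not pass the test, and the 3 longest, Mhc at 6.67 kb, bt at 26.5 kb and sls at 33.9 kb, all fell. Mlc2 and Mlp84B, at 2.29 and 2.40 kb, are of nearly the same length and had log2 changes of 0.00 and -0.40. Likewise Zasp52 and Prm, at 3.24 and 3.50 kb, had log2 changes of 0.30 and -0.34. With each library's trend on transcript length removed, an alternative chosen after seeing the data, the log2 change of sls became -0.07 (SE 0.05, limma adjusted p = 0.221), which ends its call. That of bt became -0.15 (SE 0.06, adjusted p = 0.0346). The changes of Mhc (-0.33), Prm (-0.35), Mlp84B (-0.45) and Zasp52 (0.28) stayed past the threshold by limma, with adjusted p from 0.000262 to 0.00477.

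**Figure D2:**
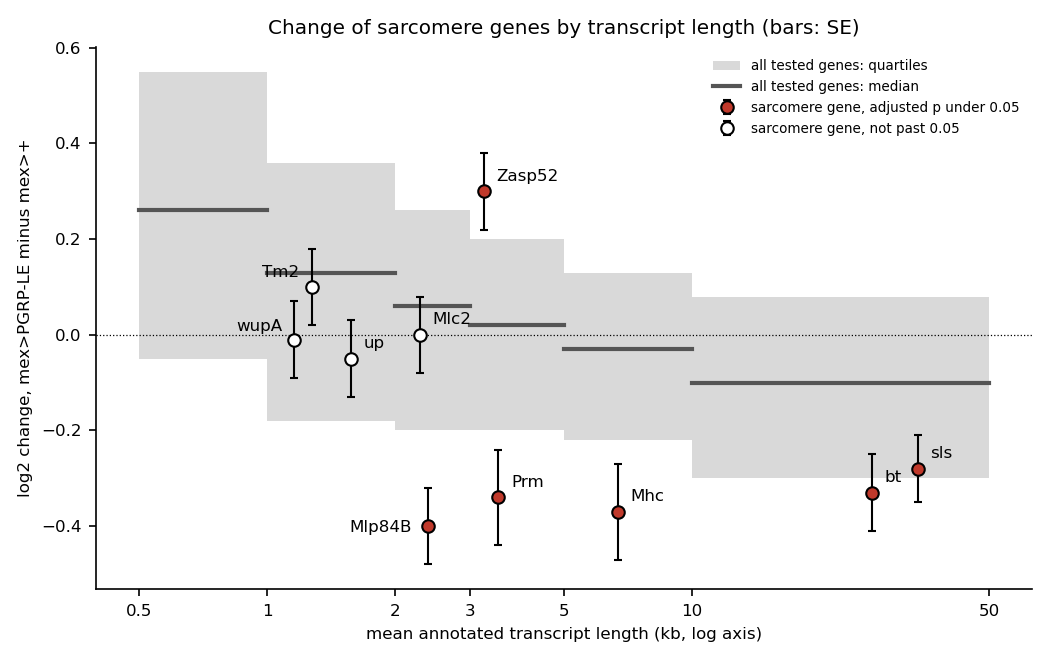
Log2 change of the 10 sarcomere genes, mex>PGRP-LE minus mex>+ (vertical axis, points with SE), against mean annotated transcript length in kb (log axis), over the median (dark lines) and quartiles (grey) of all tested genes in each length class. Filled points passed the threshold. Medians of all genes run from 0.26 for transcripts up to 1 kb to -0.10 for those over 10 kb, Mlp84B, Prm, Mhc and bt lie below the quartiles of their classes, and Zasp52 lies above.

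Within each group the 10 genes went up and down together from library to library. In mex>PGRP-LE, library 5 was highest for 9 of the 10 genes and library 4 lowest for 8. In mex>+, library 2 was highest for all 10 and library 5 lowest for 8. The coefficient of variation was 8.63% to 14.8% in mex>PGRP-LE and 6.60% to 10.9% in mex>+. After each gene's group means were taken away, the correlation of a gene with the mean of the other 9 across the 10 libraries ran from 0.892 for Zasp52 to 0.970 for up. These are descriptions, since the points are the same 10 libraries for every gene and TPM sums to a fixed total in each. The 6 calls held whichever single library was left out, with limma adjusted p of 0.0235 at most.

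**Figure D3:**
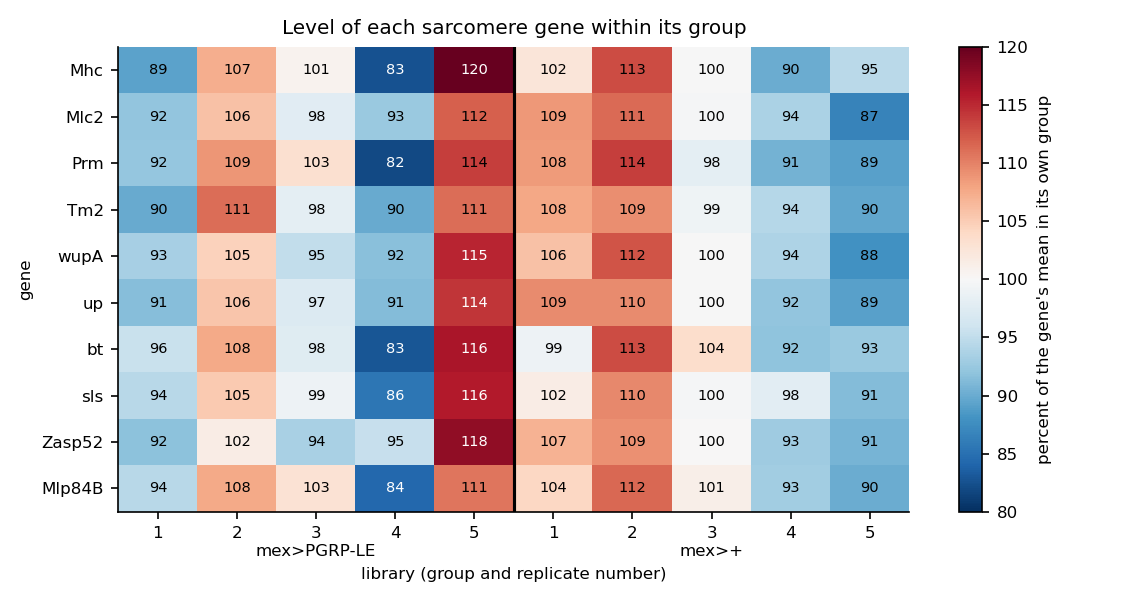
Level of each sarcomere gene (rows) in each library (columns, mex>PGRP-LE left and mex>+ right, numbered by replicate) as a percent of that gene's mean in its own group, with red above and blue below 100. Columns are nearly uniform in colour: library 5 of mex>PGRP-LE lies at 110.7 to 120.2 percent and library 4 at 82.0 to 95.4 percent, and library 2 of mex>+ at 109.2 to 113.8 percent.

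The genes outside the 10 that varied most like them across libraries included 4 from the muscle-related lists described further on (Act57B, Mlc1, Mf and Zasp66). The likeness was Pearson's r between a gene's log2(TPM + 1) values and the mean of the 10 genes, after removing group means, over 10 libraries and 6796 genes with a mean of at least 5 TPM. The 10 most alike were Act57B (r = 0.970), Mlc1 (0.965), CG42390 (0.955), CG9297 (0.953), Lmpt (0.951), ens (0.951), Mf (0.950), hlk (0.937), Zasp66 (0.932) and CG8547 (0.929). Act57B, a muscle actin, averaged 797.7 ± 90.9 TPM in mex>PGRP-LE and 762.5 ± 74.8 TPM in mex>+ libraries (SD, n = 5 each), with a log2 change of 0.06 (limma adjusted p = 0.546). Mlc1, the alkali light chain of myosin, averaged 343.6 ± 32.2 and 358.1 ± 31.7 TPM (log2 change -0.06, limma adjusted p = 0.514). Like Mlc2 and the thin filament genes, neither passed the test. Of the other 8, ens (log2 change -0.08) and Zasp66 (-0.02) did not pass the test, while CG42390 (-0.42), CG9297 (-0.39), Lmpt (-0.18), Mf (-0.28), hlk (-0.41) and CG8547 (-0.26) fell. The call of Lmpt was lost without any of 4 libraries in turn (mex>PGRP-LE 1 or 4, mex>+ 1 or 2), with adjusted p of 0.0584 to 0.0623 in those 4 fits.

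The transcripts of Mhc, sls and Zasp52 were then taken separately. Main isoforms were those with at least 5% of a gene's TPM on average, which gave 3 of 21 rows for Mhc, 3 of 13 for sls and 4 of 22 for Zasp52. Of these 10 isoforms, 1 rose and 2 fell in level, beside 28% and 18.2% of the 15162 transcripts tested and 46.2% that changed in either direction. In share of the gene's TPM, tested on the arcsine square root scale, 2 rose and 2 fell of 10, beside 6.31% and 6.39% of 10737 shares tested and 12.7% that changed in either direction. Shares of a gene sum to a fixed total, so a fall in an isoform's share lifts those of others. The calls, all in Mhc and Zasp52, are therefore not separate results. The main isoforms of Mhc share most of their coding sequence, with at most 171 of 5886 coding bases in no other main isoform. Zasp52-RI and sls-RW hold more of their own, with 1990 of 3813 and 23445 of 46434 coding bases. The estimates of how reads divide between isoforms are given without an error within a library.

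**Figure D4:**
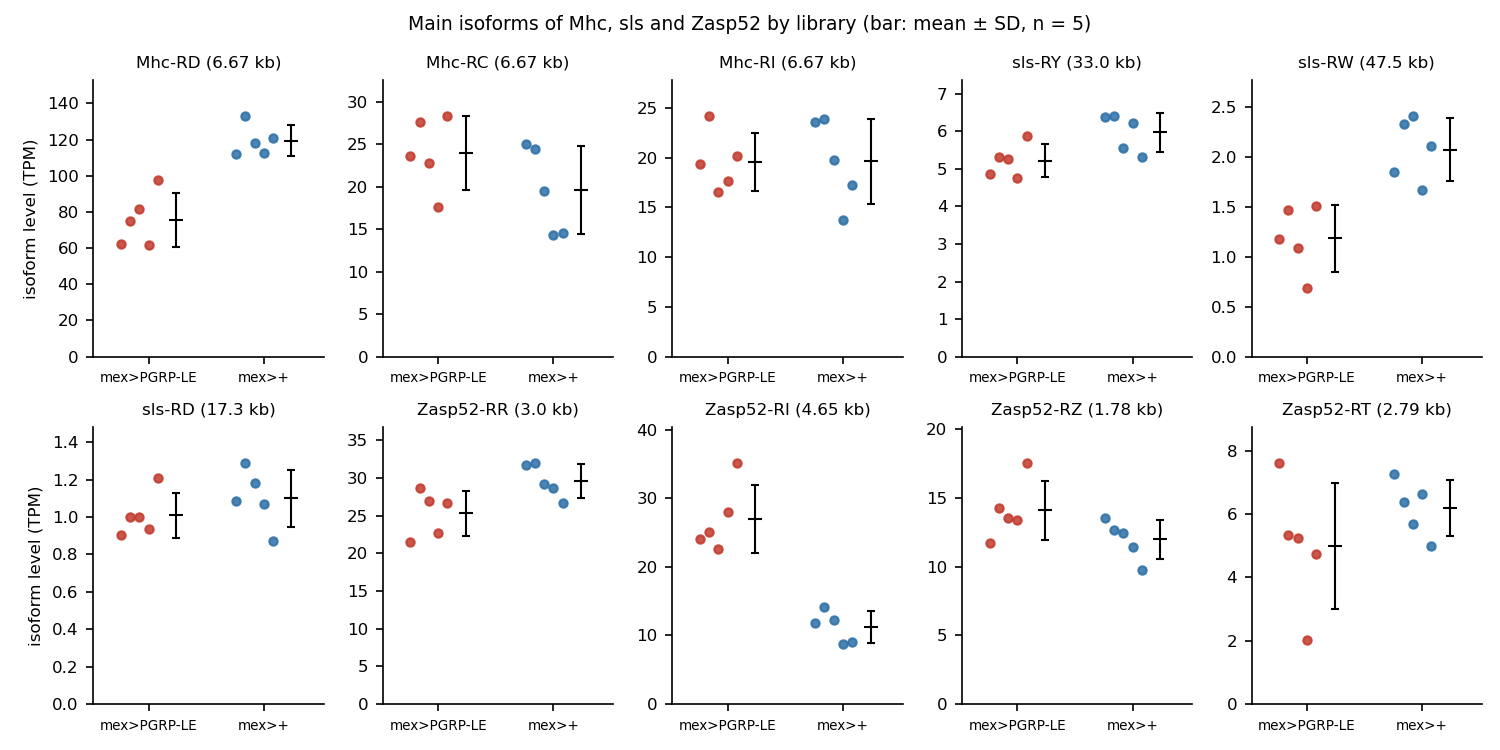
Level in TPM (vertical axes, from 0) of the main isoforms of Mhc, sls and Zasp52 in the 5 mex>PGRP-LE (red) and 5 mex>+ (blue) libraries, with annotated length in the titles and a bar for the mean ± SD. Groups are apart for Mhc-RD and sls-RW, which are lower in mex>PGRP-LE, and for Zasp52-RI, which is higher, and they overlap for the other 7. Over all 15162 tested transcripts, the groups were apart for 21.6% that were higher and 13.2% that were lower.

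In Mhc it was the most abundant transcript that fell. This transcript, Mhc-RD, holds 0 coding bases that are in no other main isoform, so its level depends on how shared reads were divided. Mhc-RD had 62.2, 74.9, 81.5, 61.6 and 97.5 TPM in mex>PGRP-LE libraries 1 to 5, against 111.9, 133, 117.9, 112.5 and 121.1 TPM in mex>+ libraries 1 to 5. The groups did not overlap, and the log2 change was -0.67 (SE 0.12, limma adjusted p = 0.000884). Its share of Mhc was 53.9% ± 4.06 in mex>PGRP-LE and 66.6% ± 4.06 in mex>+ libraries (SD, n = 5 each), again without overlap (limma adjusted p = 0.0125). Mhc-RC averaged 24.0 ± 4.30 and 19.6 ± 5.14 TPM and did not pass the test in level (log2 change 0.30, limma adjusted p = 0.203), while its share rose to 17.1% ± 1.54 in mex>PGRP-LE, against 10.8% ± 2.12 in mex>+ (adjusted p = 0.0132). Mhc-RI averaged 19.6 ± 2.93 and 19.6 ± 4.29 TPM, with a log2 change of 0.01 (adjusted p = 0.952) and shares of 14.2% ± 2.10 and 10.8% ± 1.64 (adjusted p = 0.135). Without Mhc-RD, the rest of Mhc summed to 64.1 ± 8.53 TPM in mex>PGRP-LE and 60.3 ± 11.0 TPM in mex>+, and the groups overlapped. Mhc-RD was left out because it had fallen in these same data. The overlap of the rest was therefore partly fixed in advance, carries no test and does not show that the other isoforms were unchanged.

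These Mhc transcripts have the same annotated length, 6671 bases, and differ in which alternative exons they hold. In the annotation used here, each Mhc transcript holds a single coding exon from each of 6 sets, formed by grouping coding exons that differ between transcripts. The last set, at the end of the coding sequence, holds stretches of 3, 42 and 81 bases. In the first set, the exon at 16769147 to 16769290 on 2L, held by Mhc-RC, had 20.8% ± 2.31 of Mhc TPM in mex>PGRP-LE and 13.2% ± 2.95 in mex>+, and the exon at 16769459 to 16769602, held by Mhc-RD and Mhc-RI, had 79.2% ± 2.31 and 86.8% ± 2.95 (SD, n = 5 each). The groups did not overlap for either exon. In the third set, the exon of Mhc-RI at 16776263 to 16776433 had 15.96% ± 2.65 in mex>PGRP-LE and 11.7% ± 1.78 in mex>+, with overlap. In the fourth set, the most used exon, at 16779093 to 16779210, had 85.3% ± 1.22 and 88.5% ± 1.35, without overlap. In the other sets a single exon had 96.3% or more in both groups, and the groups overlapped. These exon shares are sums of the same isoform estimates, described here without a test.

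Of the sls transcripts, the longest was the one that fell. The 47.5 kb sls-RW had 1.17, 1.46, 1.09, 0.683 and 1.502 TPM in mex>PGRP-LE libraries 1 to 5, against 1.85, 2.33, 2.41, 1.67 and 2.11 TPM in mex>+ libraries 1 to 5. The groups did not overlap. The log2 change was -0.50 (SE 0.13, limma adjusted p = 0.00877), and it was -0.79 with a pseudocount of 0.1 and -0.19 with a pseudocount of 5 (adjusted p = 0.0122 and 0.00707). Its share, 15.7% ± 3.10 and 22.5% ± 3.32, did not pass its test (adjusted p = 0.0607). The trend on transcript length, whose removal ended the call of the gene, was removed only from gene levels. The call of sls-RW was not tested that way. The 33.0 kb sls-RY, the main transcript, averaged 5.21 ± 0.439 TPM in mex>PGRP-LE and 5.97 ± 0.509 TPM in mex>+ (SD, n = 5 each), or -0.17 on the log2 scale (SE 0.08, limma adjusted p = 0.105). The 17.3 kb sls-RD, whose coding part is the shortest of these at 14433 bases, averaged 1.01 ± 0.119 and 1.10 ± 0.153 TPM (log2 change -0.06, limma adjusted p = 0.613). Whether the 3 transcripts differ in their change was not tested in level, and none of their shares passed the test.

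In Zasp52 it was Zasp52-RI that rose. It had 24.0, 25.1, 22.6, 28.0 and 35.1 TPM in mex>PGRP-LE libraries 1 to 5, against 11.8, 14.2, 12.2, 8.79 and 8.98 TPM in mex>+ libraries 1 to 5. The groups were far apart, the log2 change was 1.20 (SE 0.15, limma adjusted p = 6.64e-05), and the share was 34.3% ± 3.32 in mex>PGRP-LE and 17.7% ± 2.38 in mex>+ libraries (SD, n = 5 each, adjusted p = 0.000762). This transcript holds 1990 coding bases that are in no other main isoform of the gene. Zasp52-RR averaged 25.3 ± 3.02 and 29.6 ± 2.22 TPM and did not pass the test in level (log2 change -0.22, SE 0.09, limma adjusted p = 0.0518), although it did without mex>PGRP-LE library 2 (-0.27, adjusted p = 0.0282) or without mex>+ library 5 (-0.26, adjusted p = 0.0375). Its share fell to 32.4% ± 3.69 in mex>PGRP-LE, against 47.0% ± 1.07 in mex>+ (adjusted p = 0.00153). Zasp52-RZ and Zasp52-RT did not pass the tests of level or share, with log2 changes in level of 0.21 (adjusted p = 0.131) and -0.33 (adjusted p = 0.271). Without Zasp52-RI, the rest of the gene summed to 51.2 ± 4.35 TPM in mex>PGRP-LE and 51.8 ± 3.17 TPM in mex>+, with overlapping groups. The ratio of Zasp52-RI to Zasp52-RR was 0.839 to 1.32 in mex>PGRP-LE libraries and 0.307 to 0.444 in mex>+ libraries. The sum without Zasp52-RI and this ratio were chosen after the values were seen and carry no test. They do not show that the other isoforms were unchanged.

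Around the 10 genes, 9 lists held 74 other genes of sarcomeres, muscle attachment, calcium handling, muscle regulation, basement membrane and non-muscle myosin. Of these, 64 were tested, 20 rose, 14 fell and 30 did not pass, with a median log2 change of 0.03, beside 40.1% of all tested genes that rose, 22.8% that fell and a median of 0.09. The balance turned to 16 higher and 20 lower with median-of-ratios scaling, 17 and 18 with quantile normalization, and 18 and 20 with the length trend removed. The counts below stand beside the same shares over all genes, and nothing is read from them as particular to a list. Of 11 other thin filament genes tested, 2 rose and 1 fell. Chd64, a calponin-like actin binding protein, averaged 513.8 ± 17.6 TPM in mex>PGRP-LE and 385.5 ± 17.2 TPM in mex>+ (log2 change 0.41, limma adjusted p = 7.66e-06), and tmod, the cap of thin filament ends, averaged 36.2 ± 1.71 and 29.9 ± 3.21 TPM (0.27, adjusted p = 0.00509). Act79B, an actin of tubular muscle, fell to 1.25 ± 0.387 TPM in mex>PGRP-LE, against 4.52 ± 1.97 TPM in mex>+ (-1.25, adjusted p = 0.000206). Without mex>+ library 2, 5 genes of that list rose. Of 4 other thick filament genes, the myosin chaperone unc-45 rose (20.2 ± 2.56 and 15.7 ± 1.02 TPM in mex>PGRP-LE and mex>+, log2 change 0.34, adjusted p = 0.00284) and Mf, myofilin, fell (398.2 ± 40.7 and 484.6 ± 42.7 TPM, -0.28, adjusted p = 0.00808). Of 5 other Z-disc and M-line genes, CAP fell (-0.17, adjusted p = 0.00924), while Actn, alpha-actinin (-0.12), and Mlp60A (0.11) were among the 4 that did not pass.

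**Figure D5:**
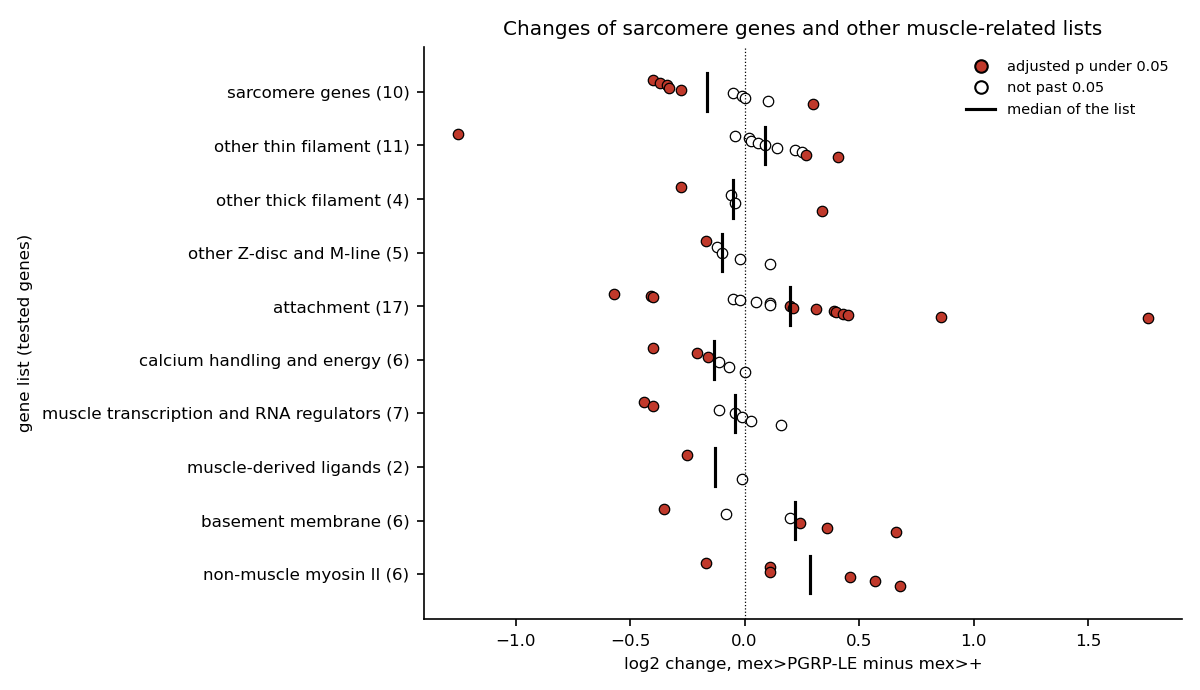
Log2 change, mex>PGRP-LE minus mex>+ (horizontal axis), of the tested genes in the set of 10 sarcomere genes and in 9 other muscle-related lists (rows, number of tested genes in brackets), with filled points past the threshold and a bar at each list's median. Medians run from -0.16 for the 10 sarcomere genes to 0.29 for non-muscle myosin II, and the attachment list holds both Scgdelta at 1.76 and Dys at -0.57.

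Genes that join muscle and other cells to their surroundings went in both directions. Of 17 attachment genes tested, 9 rose and 3 fell, with a median log2 change of 0.20, and 7 rose and 5 fell with median-of-ratios scaling. Scgdelta, delta-sarcoglycan of the dystrophin complex, averaged 137.4 ± 14.5 TPM in mex>PGRP-LE and 39.9 ± 2.46 TPM in mex>+ (log2 change 1.76, limma adjusted p = 3.2e-09), and mys, the integrin beta subunit, averaged 99.2 ± 8.35 and 54.4 ± 7.71 TPM (0.86, adjusted p = 5.76e-06). Dys, dystrophin, fell, with 22.9 ± 1.07 and 34.6 ± 2.06 TPM (-0.57, adjusted p = 1.64e-06). Among 6 tested basement membrane genes 3 rose, among them the laminin subunits LanA (0.66) and LanB1 (0.36), and the perlecan gene trol fell (-0.35, adjusted p = 0.00165). Of the 6 genes of non-muscle myosin II, the myosin of epithelial and other cells, 5 rose and 1 fell, with the heavy chain zip at 89.6 ± 7.78 and 60.2 ± 7.69 TPM (0.57, adjusted p = 1.08e-04), the light chain sqh at 311.5 ± 21.8 and 194.2 ± 13.7 TPM (0.68, adjusted p = 1.96e-06) and the phosphatase subunit flw at 0.46. In 15 of 22 alternatives, among them 9 of the 10 that leave out 1 library, fewer than 5 of these genes rose. The count was 3 without mex>PGRP-LE 2, 3, 4 or 5 or mex>+ 1, 2, 4 or 5, and 4 without mex>+ 3. The gene that fell, Mbs, named after its value was seen, was not called without mex>PGRP-LE 1 or 4 or mex>+ 1, 2 or 3.

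Of 6 calcium handling and energy genes, 3 fell and 3 did not pass, and 1 fell with spike-in scaling. RyR, the calcium release channel, averaged 1.59 ± 0.212 TPM in mex>PGRP-LE and 2.42 ± 0.176 TPM in mex>+ (log2 change -0.40, limma adjusted p = 4.15e-04), and SERCA, the calcium pump, 106.4 ± 8.32 and 122.8 ± 3.01 TPM (-0.21, adjusted p = 0.00552). The channel gene Ca-alpha1D also fell (-0.16, adjusted p = 0.0389), a call that ended in 11 alternatives, among them without any of 6 single libraries (mex>PGRP-LE 1 or 4, mex>+ 1, 2, 3 or 4). Of 7 muscle transcription and RNA regulators tested, the transcription factor Mef2 fell to 12.5 ± 0.856 TPM in mex>PGRP-LE, against 17.3 ± 1.083 TPM in mex>+ (-0.44, adjusted p = 3.83e-05), and the RNA-binding protein gene How fell to 15.01 ± 1.53 TPM, against 20.2 ± 1.74 TPM (-0.40, adjusted p = 6.13e-04). The other 5 did not pass, bs among them (0.16), which passed without mex>PGRP-LE library 1 (0.19, adjusted p = 0.0435). Of the ligands that visceral muscle is known to send to the epithelium, wg had 1.29 ± 0.189 and 1.73 ± 0.221 TPM (-0.25, adjusted p = 0.0162) and vn 1.39 ± 0.238 and 1.42 ± 0.309 TPM (-0.01, adjusted p = 0.94), in mex>PGRP-LE and mex>+. Ilp3, the third of that list, did not reach the filter, with 0.271 ± 0.0417 and 0.422 ± 0.252 TPM.

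Markers of flight and jump muscle were nearly absent. Of 5 such genes, Act88F, fln, TpnC4 and TpnC41C did not reach the filter, and the highest of their group means was 0.220 TPM, for TpnC4 in mex>+. The fifth was Act79B, counted above with the thin filament genes, and the sum of the 5 was 1.19 to 2.16 TPM in mex>PGRP-LE and 3.67 to 8.98 TPM in mex>+. Markers of other tissues that a dissection can include had summed levels that were lower in mex>PGRP-LE or overlapped. Of 4 hindgut and Malpighian tubule markers, 3 fell, and their summed level was 32.1 to 67.5 TPM in mex>PGRP-LE and 55.2 to 152.6 TPM in mex>+. The hindgut factor byn averaged 18.8 ± 1.147 and 25.1 ± 1.04 TPM, without overlap. Tracheal markers summed to 19.1 to 23.1 TPM in mex>PGRP-LE and 26.3 to 31.3 TPM in mex>+, with 3 of 5 tested lower. The 6 neuronal markers summed to 4.48 to 5.76 TPM in mex>PGRP-LE and 6.07 to 7.34 TPM in mex>+, with 1 higher and 1 lower of 3 tested. The 6 haemocyte markers summed to 9.39 to 11.9 TPM and 10.3 to 13.2 TPM, with 1 higher and 1 lower of 2 tested and eater listed at 0 in all mex>PGRP-LE libraries. The 6 fat body markers summed to 22.3 to 32.9 TPM and 27.6 to 35.7 TPM, and neither of 2 tested passed. Of the epithelial lists, the sum of 5 enterocyte markers was 2197.1 to 2571.2 TPM in mex>PGRP-LE and 1246.4 to 1603.3 TPM in mex>+, with 4 higher and 1 lower. The sum of 6 progenitor markers was 70.1 to 89.1 TPM and 21.3 to 26.7 TPM, with all 6 higher, and that of 8 enteroendocrine markers 479.5 to 536.9 TPM and 461.9 to 531 TPM, with 2 higher and 1 lower. The part of these tissues in the changes of the sarcomere genes was not tested.

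In the authors' deposited table, whose title names RUVSeq, a correction for unwanted variation, the log2 fold changes were -0.38 for Mhc, -0.35 for Prm, -0.36 for bt, -0.37 for sls, -0.42 for Mlp84B and 0.43 for Zasp52, with the authors' p-values from 8.99e-05 for Zasp52 to 0.00333 for Prm. The authors' deposited table gives -0.02 for Mlc2, 0.06 for Tm2, -0.03 for wupA and -0.07 for up, with p-values of 0.54 or more. The direction of that column is not stated, and it was read as mex>PGRP-LE over mex>+ because PGRP-LE has 6.84 there.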

How the data were processed

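Stranded libraries were made from polyA RNA of whole midguts, per the labels' protocols. The authors deposited TPM per transcript in 10 libraries, for 31181 rows of which 92 are ERCC spike-ins, and a table of their own comparison, whose log2 fold changes and p-values were computed by the authors. FastQC, Trim Galore, kallisto, edgeR and build BDGP6 are named in the submitters' processing notes, and versions and settings are not given in the sources used here. Reads of genes of similar sequence, such as the muscle actins, may have been divided between them.

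Rows were matched to the Ensembl release 115 annotation of BDGP6.54 (31048 of 31089), which gives all coordinates, and summed to 14292 genes. Genes, and separately transcripts, with at least 1 TPM in at least 5 libraries were compared as log2(TPM + 1), which understates changes of low genes, with limma 3.58.1 in R 4.3.3 (lmFit, eBayes with trend and robust), two-sided, over all 10 libraries without covariates. Shares between 5% and 95% of a gene's TPM were compared on the arcsine square root scale, and 107 constant shares were left out. P-values were adjusted by Benjamini-Hochberg over all features tested, and adjusted p without another tool's name is limma's. The fits were tested on simulated data. Replicates correlated at r = 0.991 to 0.997 in mex>PGRP-LE and 0.989 to 0.997 in mex>+, and none were identical.

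The members and the gene lists were chosen with earlier results of these data known. Named were the 10 genes, their main isoforms, the 3 genes with the smallest p of each muscle list, markers of other tissues used beside a result, and the 10 genes most like the members. Alternatives for genes covered pseudocounts of 0.1 and 5, other filters, median-of-ratios, quantile and spike-in scaling, plain eBayes, array weights, the replicate number as a block, each library left out and both libraries numbered 2 left out. Transcript levels were run only with the pseudocounts, median-of-ratios scaling, plain eBayes, the block and each library left out. Shares were run only untransformed, with plain eBayes, with the block and with each library left out. Removal of the trend on transcript length was added after seeing the data. For each library and log2 length, it was a lowess curve with a span of 0.3.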

Additional observations from a re-analysis of the deposited data

Results flagged for a closer look

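The share of Zasp52-RR in Zasp52 stood out within mex>+. Library 4 had 48.9%, the highest of 5, with the nearest other library at 47.0% and the lowest at 46.3%, so that its gap to the nearest took up 0.738 of the group's range, above Dixon's critical value. It was the only group of 62 examined that stood out in this way, and chance marks about 1 group in 20. The share in mex>PGRP-LE was 28.9% to 36.8%, below every mex>+ library.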

How the results depend on the processing

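The falls of Mhc, bt, Mlp84B and Prm and the rise of Zasp52 kept their direction and passed the threshold in all 22 alternatives, that of sls in 21, and Mlc2, Tm2, wupA and up passed in 0. The number of main isoforms of Mhc, sls and Zasp52 that fell was 2, and 4 with median-of-ratios scaling, which adds sls-RY (log2 change -0.25, limma adjusted p = 0.00908) and Zasp52-RR (-0.33, adjusted p = 0.00339). Of all calls over genes, 63.7% were higher in mex>PGRP-LE, and 50.4% with median-of-ratios scaling, 53.8% with quantile normalization and 50.7% with the length trend removed. With the replicate block, 1 of the 10 genes rose and 5 fell, as without it, and over all genes 3173 rose and 1803 fell, against 3499 and 1991 without it. A pairing of libraries by replicate number was not evident, and these values cannot exclude it. Same-numbered libraries correlated at -0.233 to 0.57, and 1 of 5 pairs, that numbered 2, was over 0.1. By the same measure, pairs of libraries with different numbers ran from -0.489 to 0.394. Among the named genes, the block ended the calls of wg (adjusted p = 0.0506) and Ca-alpha1D (0.104), and spike-in scaling those of CAP (0.0924), SERCA (0.07), Lmpt (0.0951) and Ca-alpha1D (0.19). Both also ended the single fall in the non-muscle myosin II list. Genes that did not pass but did so, as falls, elsewhere were Mlc1 (0.0479), Actn (0.00892) and ens (0.00186) with median-of-ratios scaling, Actn (0.0172) and ens (0.00451) with quantile normalization, and Mlp60A (0.0319), Mlc1 (0.005) and Zasp66 (0.0359) with the length trend removed, where Mlp60A changed sign to -0.20. The number of other Z-disc and M-line genes that fell, 1, became 3 with median-of-ratios scaling and 0 with spike-in scaling, and that of muscle regulators, 2, became 4 with the length trend removed. Over the alternatives, the log2 change ran from -1.73 to -0.59 for Act79B, -0.58 to -0.17 for RyR, -0.40 to -0.10 for wg and 0.39 to 0.78 for LanA. Act79B, RyR, Ca-alpha1D, wg and vn were not tested with a mean filter of 5 TPM. TPM keeps no depth, which leaves the precision of low transcripts such as sls-RW unknown.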

Other observations

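Some transcripts of other members also changed, and they were chosen here after their values were seen. Mlp84B-RA had 9.96, 10.1, 19.1, 11.8 and 18.7 TPM in mex>PGRP-LE libraries 1 to 5, against 34.0, 36.7, 28.3, 34.2 and 21.8 TPM in mex>+ libraries 1 to 5. The groups did not overlap (log2 change -1.13, SE 0.21, limma adjusted p = 0.00112). Mlp84B-RB, which has the same coding exon, averaged 37.8 ± 4.96 TPM in mex>PGRP-LE and 38.2 ± 4.61 TPM in mex>+ (SD, n = 5 each, adjusted p = 0.917), and these transcripts differ outside the coding sequence. Prm-RB, with the same coding length as Prm-RA, averaged 24.3 ± 7.48 and 38.9 ± 3.71 TPM (-0.72, adjusted p = 0.0197), while Prm-RA averaged 53.1 ± 6.81 and 58.9 ± 7.04 TPM (adjusted p = 0.258). The lowest Prm-RB value, 11.5 TPM, was in mex>PGRP-LE library 4.

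Some transcripts of up moved although the gene's total did not pass the test, and minor transcripts of Zasp52 and Mhc moved too. The troponin T transcript up-RK averaged 18.3 ± 6.31 TPM in mex>PGRP-LE and 38.8 ± 6.42 TPM in mex>+ (SD, n = 5 each), without overlap (log2 change -1.09, SE 0.21, limma adjusted p = 0.00135), and its share of up was 5.16% ± 2.05 and 10.4% ± 1.35 (adjusted p = 0.0196). The minor transcript up-RE averaged 12.5 ± 3.37 and 7.27 ± 2.94 TPM, with overlapping groups (0.73, adjusted p = 0.0363). Zasp52-RY, a minor transcript, averaged 3.16 ± 0.994 TPM in mex>PGRP-LE and 0.370 ± 0.383 TPM in mex>+, without overlap (1.61, adjusted p = 0.000192). In mex>+ libraries 1 and 4 it had 8.22e-06 and 3.72e-06 TPM, so its log2 change depends on the pseudocount. Mhc-RG averaged 2.27 ± 0.471 and 1.28 ± 0.379 TPM, with overlapping groups (0.52, adjusted p = 0.0116).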
